A study of Mus musculus with 31 samples.

Results

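Stab2, Stab1, Lyve1, Prox1, Pdpn, Flt4, Vegfc and Figf were followed in mouse kidney as 8 genes taken by symbol from the 23509 genes counted by RNA-seq. Stab2 and Stab1 encode the stabilins, Lyve1 a hyaluronan receptor, Prox1 a transcription factor, Pdpn the membrane glycoprotein podoplanin and Flt4 the receptor VEGFR-3. Vegfc and Figf (also called Vegfd) encode the ligands of that receptor. The set was chosen by the measured difference between diseased and wild-type kidneys, in which Stab2 was among the largest rises, so the values of the 8 genes against wild type, and the counts of calls among them, are descriptions that support nothing.

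The study asked what RGLS4326, a short chemically modified oligonucleotide that inhibits miR-17, does in mice with polycystic kidneys. The PBS group held 12 Pcy/CD1 mice, in which the pcy allele on a CD1 background gives slowly growing cysts, injected under the skin with saline from 5 weeks of age for 25 weeks, to 30 weeks of age. The RGLS4326 group held 14 Pcy/CD1 mice injected with 25 mg/kg monthly from 5 weeks of age for 25 weeks, to 30 weeks of age. The wild-type group held 5 age-matched male CD1 mice that were left untreated. PBS dosing is given as weekly in the sample label and as monthly in the protocol. Disease and injection both differed between Pcy/CD1 and wild-type mice. The study also lists different suppliers for Pcy/CD1 and CD1 mice, so the colony may have differed too. These factors cannot be told apart in these comparisons.

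Stabilins are large scavenger receptors that take up waste molecules from blood and lymph, with hyaluronan as a ligand of the Stab2 product. They are best known from the sinusoidal endothelium of liver, spleen and lymph node. Stab1 is also made by tissue macrophages. In lymphatic vessels, PROX1 sets the identity of the endothelium, VEGF-C and VEGF-D drive its growth through VEGFR-3, and LYVE1 and podoplanin mark its surface. None of these genes is specific to lymphatic vessels in kidney, since podoplanin is strong in podocytes, LYVE1 is also carried by some macrophages and VEGFR-3 is found in fenestrated blood capillaries.

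RGLS4326 acts on the miR-17 family, whose shared seed decides which 3′UTRs it can pair with. The mature sequences (RefSeq, GRCm38.p6) are shown 5′ to 3′ so that the seed, bases 2 to 8 in capitals, can be set against the 3′UTRs of the 8 genes. The last entry has the same seed without the family name.
mmu-miR-17-5p (chr14:115043684-115043706, plus strand): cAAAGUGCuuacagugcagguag
mmu-miR-20a-5p (chr14:115044183-115044205, plus strand): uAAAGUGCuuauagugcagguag
mmu-miR-93-5p (chr5:138165574-138165596, minus strand): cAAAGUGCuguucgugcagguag
mmu-miR-106b-5p (chr5:138165787-138165807, minus strand): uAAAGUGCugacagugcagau
mmu-miR-106a-5p (chrX:52742541-52742563, minus strand): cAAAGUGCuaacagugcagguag
mmu-miR-20b-5p (chrX:52742159-52742181, minus strand): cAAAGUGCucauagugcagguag
mmu-miR-6383 (chrX:136183262-136183282, plus strand): uAAAGUGCugugucacggaca

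The longest annotated 3′UTR of each gene (GENCODE vM21, GRCm38) was searched on the transcript strand for GCACTTT, the match to the whole seed, and for CACTTTA and CACTTT, the shorter matches, which overlap it. GCACTTT was found in 0 of the 8 genes, against 12.3% of 19177 genes with an annotated 3′UTR. Prox1, with 5185 bases the longest 3′UTR of the set, held 1 CACTTTA, and 19.2% of all 3′UTRs held a match of at least 7 bases. That match lies in exon 5 of 5 at chr1:190120448-190120454 on the minus strand, and is shown in capitals with its surroundings, chr1:190120437-190120465.
Prox1 3′UTR: tgtcttcttttCACTTTAtttccaagtac
A further CACTTT without the last A occurred once in Prox1 and once in Lyve1, and 37.9% of all 3′UTRs held CACTTT in a match of any of these lengths. The 3′UTRs of Stab2, Stab1, Pdpn, Flt4, Vegfc and Figf, between 134 and 1656 bases long, held none of these letters, and nothing about binding follows from a match or its absence.

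Counts on genes ran from 14892524 to 27459962 per mouse, and levels are given as CPM, counts scaled to a common library size. The mice were split into 3 index series, of 10, 11 and 10 mice, by inference from the deposited library names. In each group the series follow the order of the replicate numbers. Mice of different groups with the same series were taken as a shared technical batch. That is an assumption, because the names give nothing more, and all values by index series rest on it. Kidney genes were strong in all groups, such as the proximal tubule receptor Lrp2 at a mean of 1430 to 3609 CPM. RGLS4326-treated mouse 9 stood apart from its group. At 4624 genes the other 25 Pcy/CD1 mice and the wild-type mice had ranges that did not overlap, and mouse 9 was nearer to wild type at 4303 of them (93.1%). Its label was kept, and the results that rest on it are given with and without it. The wild-type, PBS and RGLS4326 mice are separate animals, so p-values measure the spread between mice. In whole kidney, fewer cells of a type and less RNA per cell cannot be told apart.

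Stab2 (minus strand of chr10, 86841198 to 87008025 of GRCm38) was near the limit of detection in wild-type kidney and abundant in almost every Pcy/CD1 kidney. Stab2 in the 5 wild-type mice was 0.590, 1.43, 1.18, 1.57 and 1.27 CPM. The 12 PBS-treated mice ran from 62.1 CPM through a median of 79.0 to 126 CPM. The 14 RGLS4326-treated mice ran from 1.58 through 78.4 to 126 CPM. The lowest PBS-treated mouse thus stood far above the highest wild-type mouse, and the RGLS4326-treated mice other than mouse 9 ran from 58.9 to 126 CPM, close to the range of the PBS group. Mouse 9 had 31 counts, next to 10 to 26 counts in wild type, while the next lowest RGLS4326-treated mouse had 1187.

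The mean Stab2 level was 1.21 ± 0.377 CPM in wild type (SD, n = 5), 83.5 ± 19.2 with PBS (SD, n = 12) and 77.2 ± 28.9 with RGLS4326 (SD, n = 14), or 83.1 ± 19.8 without mouse 9 (SD, n = 13). The log2 fold change of PBS against wild type was 6.11 (SE 0.56), a 68.9-fold difference. For RGLS4326 against wild type it was 5.99 (SE 0.55), and 6.10 (SE 0.26) without mouse 9. Both comparisons share the same wild-type mice. Within the 2 index series that had at least 2 wild-type mice, the PBS difference was 6.17 and 5.88. The third index series had 1 wild-type mouse and gave no such value.

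**Figure D1:**
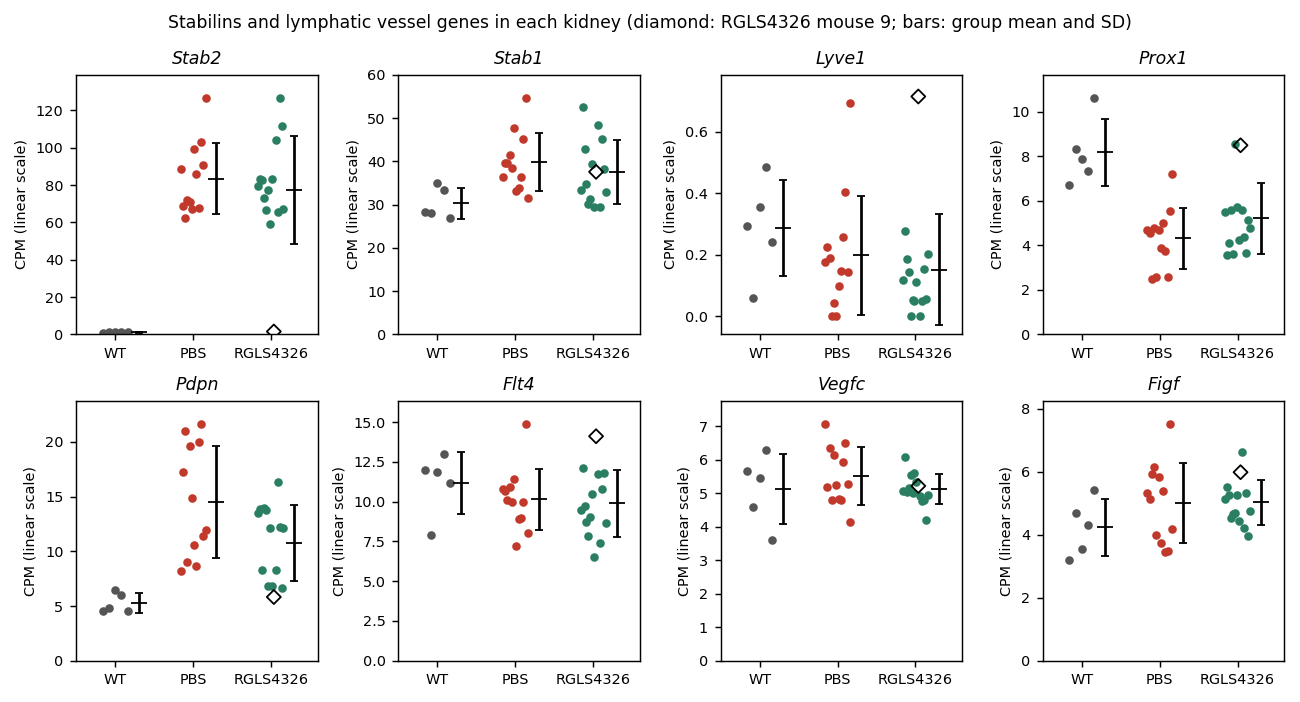
Each panel plots 1 gene, with the level in CPM on a linear axis for every wild-type (WT), PBS-treated and RGLS4326-treated mouse, and bars for the group mean and SD. Stab2 read 0.590 to 1.57 CPM in wild type and 62.1 to 126 CPM with PBS, while RGLS4326-treated mouse 9 (diamond) lay at 1.58 CPM. Lyve1 stayed under 1 CPM in each mouse.

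The gap between the groups is given for Stab2 as a description, since the gene was chosen for this difference. The lowest of the 25 other Pcy/CD1 mice was 37.4-fold above the highest wild-type mouse for Stab2, the rank 2 value among 10708 genes ranked for this gap, those with at least 5 CPM in all 25 mice and a count in wild type, a limit that lets in genes through the group where they are high. Camk2b, a neuronal protein kinase subunit, had the widest at 40.9-fold. Lcn2, which encodes the tubular injury marker Ngal, had a gap of 11.2-fold, and Ppfia4 was the last of 4 genes at 10-fold or more, and Camk2b and Ppfia4 are named after their values were seen. Within the PBS group the coefficient of variation of Stab2 was 22.9%, next to 57.6% for Lcn2 and to 15.7% for Vegfc, 16.6% for Stab1, 19.1% for Flt4, 25.1% for Figf, 31.7% for Prox1 and 35.4% for Pdpn.

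The tested genes that precede Stab2 on chromosome 10 had far smaller differences. Nt5dc3, whose end lies 2809 bases from Stab2, read 11.9 ± 1.89 CPM in wild type (SD, n = 5) and 14.1 ± 1.40 with PBS (SD, n = 12), a log2 fold change of 0.25 (SE 0.085). Hsp90b1, which encodes a chaperone of the endoplasmic reticulum, had a log2 fold change of -0.17 (SE 0.074), and 1810014B01Rik one of -0.20 (SE 0.10). 1700113H08Rik was too low to be tested. The annotation places 5 genes on the opposite strand of Stab2, 3 of them antisense RNAs, none of which is in the counts. The libraries were stranded, but the strand setting of the counting is not stated, so reads from such genes cannot be told apart from Stab2.

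Stab1 (chr14, 31139013 to 31168641, minus strand) differed far less than its relative. In wild type it ran from 26.9 through a median of 28.2 to 34.9 CPM. The PBS group ran from 31.6 through 39.0 to 54.6 CPM, and the RGLS4326 group from 29.4 through 36.1 to 52.6 CPM. All 3 ranges overlapped. The log2 fold change of PBS against wild type was 0.40 (SE 0.13) and that of RGLS4326 was 0.31 (SE 0.13). Stab1 partly overlaps Nt5dc2, a gene on the opposite strand.

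Macrophage markers also differed between PBS-treated and wild-type kidneys. Of 12 tested macrophage markers 11 were called higher with PBS than in wild type and 0 lower, beside 24.6% and 17.8% of all genes tested, with a median log2 fold change of 2.72. Their summed level was 203 to 243 CPM in wild type, 592 to 1052 with PBS and 405 to 1217 with RGLS4326 apart from mouse 9, which at 217 CPM was within the wild-type range. C1qa, a complement component of macrophages, read 11.6 ± 3.21 CPM in wild type (SD, n = 5) and 99.9 ± 28.7 with PBS (SD, n = 12). Between RGLS4326 and PBS 0 of the 12 were called, beside 2.15% of all genes. Folr2 alone passed the adjusted p (log2 fold change -0.47, adjusted p = 0.0333), as did 15.8% of all genes, but not without mouse 9 (adjusted p = 0.0509). Without mouse 9 1 of the markers was called higher, beside 0.956% of all genes in either direction. The part of macrophages in the Stab1 level was not tested.

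Genes of the liver sinusoid, a stabilin-rich tissue, differed among themselves. Clec4g, a lectin of liver sinusoidal endothelium, averaged 0.0715 CPM in wild type and 0.0726 with PBS, and Clec1b averaged 0.203 and 0.140 CPM. Oit3 averaged 0.0957 and 0.359 CPM, Gpr182 2.37 CPM in both groups and Dnase1l3 1.76 and 2.16 CPM. Fcgr2b, an Fc receptor that macrophages and B cells also carry, read 33.8 ± 1.59 CPM in wild type (SD, n = 5) and 59.2 ± 4.15 with PBS (SD, n = 12). Of 4 tested genes of this sinusoidal list 2 were called higher with PBS and 0 lower, and its summed level was 35.6 to 40.2 CPM in wild type, 55.3 to 69.3 with PBS and 64.0 to 76.4 with RGLS4326 apart from mouse 9, at 36.9. Of 10 hepatocyte genes 6 were called lower with PBS and 1 higher, at summed levels of 95.3 to 352 CPM in wild type, 56.4 to 154 with PBS and 72.3 to 264 with RGLS4326 apart from mouse 9, at 590 CPM. Between RGLS4326 and PBS 3 of the 10 were called higher, namely Alb, Apoa2 and Apoh, beside 2.15% of all genes in either direction, and 0 were without mouse 9, beside 0.956%. The part of liver cells in the Stab2 level was not tested. Of 6 tested lymph node genes 5 were called higher with PBS and 1 lower, at summed levels of 2.55 to 4.88 CPM in wild type and 4.41 to 14.2 with PBS. Ccl19 was at 0 counts in all mice, as was Ccl21a of the lymphatic list, both genes with near-identical copies whose reads are not counted when they map to several places.

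Lyve1 (chr7, 110850607 to 110863239, minus strand) could not be measured at this depth. Between 0 and 15 counts were found per mouse, and the gene was removed by the filter on low counts. The mean was 0.287 ± 0.156 CPM in wild type (SD, n = 5), 0.198 ± 0.194 with PBS (SD, n = 12) and 0.151 ± 0.181 with RGLS4326 (SD, n = 14). With PBS 2 mice had 0 counts, and with RGLS4326 another 2. The highest value, 0.716 CPM, was again in RGLS4326-treated mouse 9, and the 3 groups overlapped.

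Prox1 (chr1, 190118035 to 190170714, minus strand) was lower in Pcy/CD1 kidneys. Prox1 in the wild-type mice was 6.72, 8.32, 7.87, 7.33 and 10.6 CPM. The PBS group ran from 2.49 through 4.62 to 7.19 CPM, and the RGLS4326 group from 3.56 through 4.97 to 8.53 CPM. Most Pcy/CD1 mice lay below all wild-type mice, but the ranges met at their ends. The log2 fold change was -0.92 (SE 0.21) with PBS and -0.65 (SE 0.20) with RGLS4326, the latter -0.72 (SE 0.19) without mouse 9, which at 8.49 CPM was among the wild-type values. Kidney tubule genes moved alongside, with 5 of 8 called lower with PBS and 1, the collecting duct water channel Aqp2, called higher, and their part in the Prox1 level was not tested.

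Pdpn (chr4, 143267431 to 143299564, minus strand) was higher in Pcy/CD1 kidneys and spread widely among them. Pdpn in the wild-type mice was 4.54, 4.81, 6.51, 6.05 and 4.58 CPM. The PBS group ran from 8.23 through 13.4 to 21.6 CPM, above all wild-type mice. The RGLS4326 group ran from 5.83 in mouse 9 through 12.1 to 16.4 CPM, and its other 13 mice began at 6.68 CPM, just above wild type. The log2 fold change was 1.46 (SE 0.27) with PBS and 1.03 (SE 0.26) with RGLS4326, the latter 1.08 (SE 0.25) without mouse 9. Of 8 podocyte genes 4 were called higher with PBS and 0 lower, at summed levels of 203 to 346 CPM in wild type and 236 to 410 with PBS. Wt1, a podocyte transcription factor, read 3.50 ± 0.577 CPM in wild type (SD, n = 5) and 7.39 ± 1.81 with PBS (SD, n = 12). Of 6 fibroblast genes 4 were called higher and 0 lower, at summed levels of 109 to 155 CPM in wild type and 367 to 787 with PBS. The part of podocytes or fibroblasts in the Pdpn level was not tested.

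The receptor and its ligands lay close together in all groups. Flt4 (chr11, 49609263 to 49652739, plus strand) averaged 11.2 ± 1.95 CPM in wild type (SD, n = 5), 10.1 ± 1.93 with PBS (SD, n = 12) and 9.89 ± 2.09 with RGLS4326 (SD, n = 14). Vegfc (chr8, 54077606 to 54187096, plus strand) averaged 5.12 ± 1.04, 5.52 ± 0.868 and 5.12 ± 0.443 CPM in the same groups. Figf (chrX, 164373378 to 164402650, plus strand) averaged 4.23 ± 0.893, 5.00 ± 1.25 and 5.02 ± 0.714 CPM. The ranges of all 3 groups overlapped for each of these genes. With PBS the log2 fold change from wild type was -0.14 (SE 0.15) for Flt4, 0.11 (SE 0.11) for Vegfc and 0.24 (SE 0.16) for Figf, each within 2 SE of 0.

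Of the 7 genes that passed the filter, 3 were called between PBS and wild type, namely Stab2 and Pdpn higher and Prox1 lower, where a call needs a log2 fold change over 0.5 in size and an adjusted p under 0.05. The same call was made at 42.4% of all 15185 genes tested, with 24.6% higher and 17.8% lower, and nothing is read from the count because this contrast chose the set. Between RGLS4326 and wild type Stab2, Pdpn and Prox1 were again called, next to 31.5% of all genes. The ranges of PBS and wild type did not overlap for Stab2 and Pdpn, as at 42.2% of all genes. Between RGLS4326 and wild type that held for Stab2 with all mice, mouse 9 being barely above the highest wild-type mouse, as at 14.8% of all genes, and for Stab2 and Pdpn without mouse 9, as at 33.4%. No gene of the 8 had separate ranges between RGLS4326 and PBS, nor had any gene tested (0.0%). The median log2 fold change of the 7 genes was 0.24 with PBS against wild type, beside 0.010 over all genes tested.

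Per kb of exon, which allows genes to be compared, the order of the levels differed between groups. In wild type Stab1 (2.94 ± 0.348 CPM per kb, SD, n = 5) and Pdpn (2.92 ± 0.505) stood highest, followed by Vegfc (2.09), Figf (1.76), Flt4 (1.36), Prox1 (0.973), Stab2 (0.138) and Lyve1 (0.0983). With PBS Stab2 stood first at 9.53 ± 2.19 CPM per kb (SD, n = 12), followed by Pdpn (7.99 ± 2.83), Stab1 (3.87), Vegfc (2.25), Figf (2.08), Flt4 (1.23), Prox1 (0.513) and Lyve1 (0.0680). Stab1 and Pdpn in wild type, Stab2 and Pdpn with PBS, Stab2 and Lyve1 in wild type, and Vegfc and Figf in both groups differed by less than their SD. With RGLS4326 the order was that of the PBS group, led by Stab2 at 8.82 and Pdpn at 5.93 CPM per kb.

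**Figure D2:**
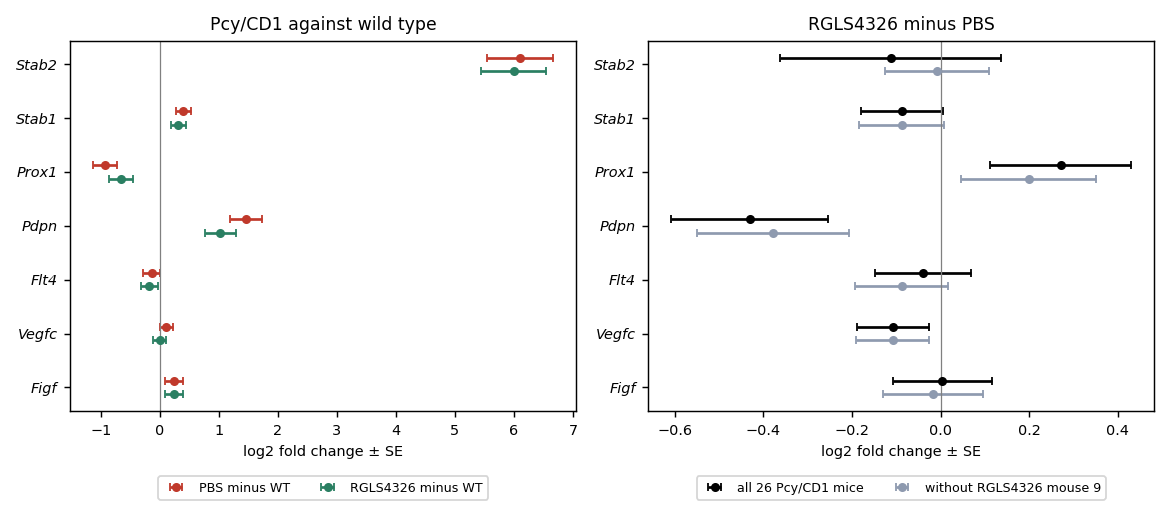
Points give the log2 fold change of each of the 7 tested genes and bars its SE, for Pcy/CD1 against wild type on the left and RGLS4326 against PBS on the right, where the axis is narrower. Stab2 lay near 6 against wild type in both treated groups, and all differences between RGLS4326 and PBS were under 0.5 in size.

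Whether inhibition of miR-17 moved these genes was tested between the RGLS4326 and PBS groups. By the same rule, 0 of the 7 tested genes were called by edgeR, next to 2.15% of all 15185 genes, and DESeq2 called 0 as well. Without the limit on size 0 passed too, next to 15.8% of all genes, although Pdpn then passed on leaving out PBS-treated mouse 1 (adjusted p = 0.049) or mouse 4 (adjusted p = 0.0461). At an unadjusted p under 0.05 there was 1, Pdpn, next to 36.8% of all genes. Without mouse 9 the counts of the 7 genes were again 0, 0 and 1, while the shares of all genes were 0.956%, 8.14% and 32.0%.

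In the fit of all mice Pdpn had the largest of these differences. It was lower with RGLS4326, at 10.8 ± 3.49 CPM (SD, n = 14) against 14.5 ± 5.15 with PBS (SD, n = 12), with a log2 fold change of -0.43 (SE 0.18, adjusted p = 0.0809). The interval of 2 SE reached from 0.581 to 0.947 as a ratio. Without mouse 9 the log2 fold change was -0.38 (adjusted p = 0.129). Within the 3 index series it was -0.17, -0.56 and -0.54, none of which passed the adjustment. Prox1 had 0.19, 0.60 and -0.013 there, larger in size than Pdpn in the first 2. The 5 highest Pdpn values were all in PBS-treated mice, and the ranges of the groups overlapped. Lcn2 was lower as well, at 333 ± 193 CPM with RGLS4326 (SD, n = 14) against 583 ± 336 with PBS (SD, n = 12). By permutation on log2(CPM + 1) its difference was -1.13 (p = 0.0351, and 0.0513 without mouse 9). Of 8 podocyte genes 0 were called. Plce1 alone passed the adjusted p (log2 fold change -0.28, adjusted p = 0.049), as did 15.8% of all genes, but not without mouse 9 (adjusted p = 0.0801). What these have to do with Pdpn was not tested.

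For Stab2 the difference between the groups was smaller than the spread of the mice. Its log2 fold change was -0.11 (SE 0.25, adjusted p = 0.760), and -0.0080 (SE 0.12, adjusted p = 0.967) without mouse 9. Without that mouse the interval of 2 SE was 0.845 to 1.17 as a ratio. Within the index series the log2 fold change was 0.13, -0.49 and -0.026, the second being the series of mouse 9. Stab1 had a log2 fold change of -0.088 (SE 0.093, adjusted p = 0.5) and an interval of 0.828 to 1.07 as a ratio.

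Prox1 had a log2 fold change of 0.27 (SE 0.16, adjusted p = 0.211), with an interval of 0.968 to 1.51, and 0.20 (adjusted p = 0.368) without mouse 9. For the receptor Flt4 the log2 fold change was -0.040 (SE 0.11, adjusted p = 0.806). The ligand Vegfc had -0.11 (SE 0.081, adjusted p = 0.335), and Figf 0.0042 (SE 0.11, adjusted p = 0.983). None of these differences passed the test, and the intervals of 2 SE were 0.836 to 1.13 for Flt4, 0.830 to 1.04 for Vegfc and 0.859 to 1.17 for Figf as ratios.

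The Pcy/CD1 mice of a group also differed among themselves, and 36 relations were tested between the 8 genes and with Lcn2 over 26 mice, on log2(CPM + 1) with the group means removed. By permutation of mice within groups, 6 passed the adjustment over the 36. The share of all gene pairs that would pass is not given here, so the 6 are not read as particular to these genes. Of 13783 genes, 1682 had an r over 0.7 with Pdpn, 842 with Prox1, 148 with Stab1, 79 with Flt4 and 51 with Figf over the 26 mice. Because mouse 9 lay far from the rest for Stab2 and Lcn2, r is also given over the other 25 mice.

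Stab1 and Flt4 varied together from mouse to mouse, although their group means differed little. Pearson's r was 0.808 and Spearman's rho 0.889 (adjusted permutation p = 0.00018 for both, from the smallest p that 100000 resamples can give), r was 0.882 within the PBS group and 0.762 within the RGLS4326 group, and r was 0.756 without the 2 mice farthest from the median of Stab1. Without mouse 9 r was 0.873, and it was 0.831 with the index series means also removed. Figf followed both, with r = 0.558 and rho = 0.566 for Stab1 (adjusted permutation p = 0.0128 and 0.0142) and r = 0.651 and rho = 0.651 for Flt4 (adjusted permutation p = 0.00192 and 0.0054). Without the 2 mice farthest from the median r was 0.454 and 0.578. Vegfc, the other ligand, had r = 0.139 with Flt4 (adjusted permutation p = 0.657).

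Pdpn followed the injury marker Lcn2. Over 26 mice r was 0.746 and rho 0.903 (adjusted permutation p = 0.00018 for both), and r was 0.933 without mouse 9. Within the PBS group r was 0.922, and within the RGLS4326 group 0.949 without mouse 9. Without the 2 mice farthest from the median of Pdpn, which are mouse 9 and PBS-treated mouse 1, r was 0.901. Prox1 ran the opposite way, with r = -0.607 and rho = -0.629 against Lcn2 (adjusted permutation p = 0.00243 and 0.00648) and r = -0.614 and rho = -0.631 against Pdpn (adjusted permutation p = 0.00922 and 0.00792). Without the 2 mice farthest from the median of Prox1, r was -0.649 and -0.604, and without mouse 9 it was -0.571 and -0.561. Within the PBS group r was -0.702 against Lcn2 and -0.688 against Pdpn. Within the RGLS4326 group it was -0.645 and -0.54, but -0.418 and -0.389 without mouse 9. Prox1 and Vegfc had r = -0.490 (adjusted permutation p = 0.0748), which passed only without mouse 9, at r = -0.548 (adjusted permutation p = 0.0423), or with the index series means removed, at r = -0.630 (adjusted permutation p = 0.0173).

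Stab2 did not follow Lcn2. Without mouse 9 r was -0.377 (adjusted permutation p = 0.193, n = 25). A pooled r is not given, since the 26 mice fall into mouse 9 and the rest for both genes. Stab2 against Stab1 gave r = 0.191 over the same 25 mice (adjusted permutation p = 0.663).

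**Figure D3:**
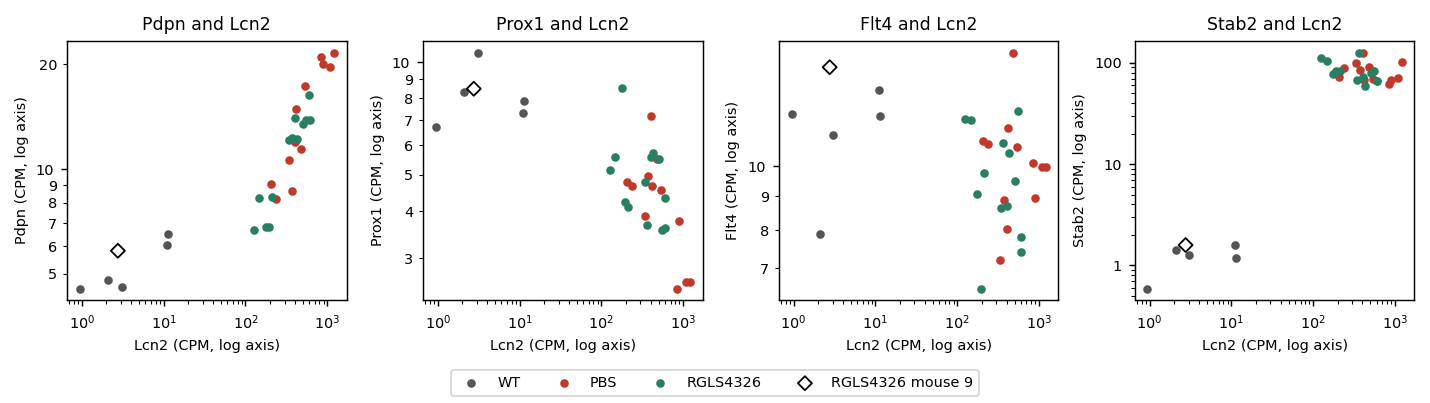
Each panel sets 1 gene (vertical, CPM) against Lcn2 (horizontal, CPM), both on log axes, with 1 point per mouse. Pdpn climbed with Lcn2 (r = 0.933 over 25 mice) and Prox1 declined (r = -0.571), whereas Stab2 formed a low cloud of wild-type mice with RGLS4326-treated mouse 9 and a flat high cloud of the other Pcy/CD1 mice.

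**Figure D4:**
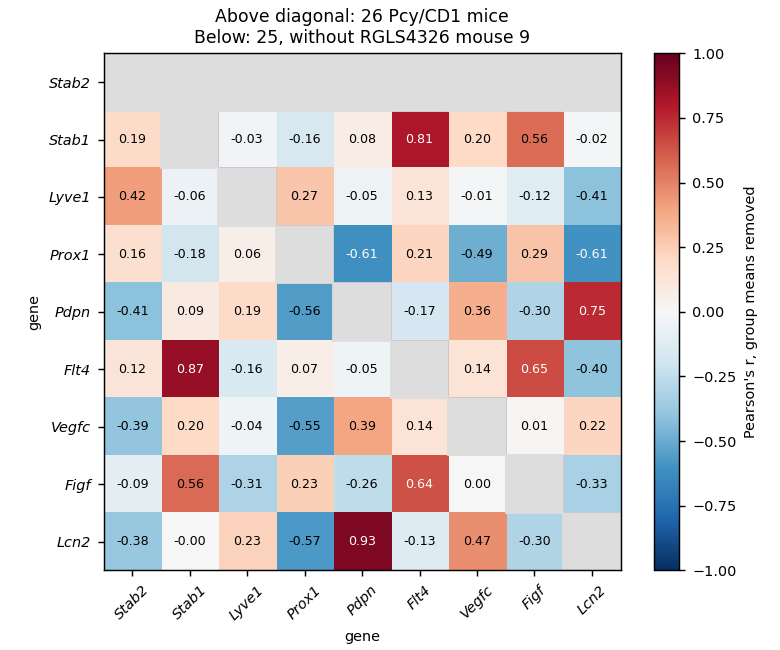
Each square gives Pearson's r of log2(CPM + 1) between 2 genes with group means removed, above the diagonal over 26 Pcy/CD1 mice and below it over 25 without RGLS4326-treated mouse 9. Stab1 with Flt4 (0.81 and 0.87) and Pdpn with Lcn2 (0.75 and 0.93) were the strongest pairs in both. Pairs of Stab2 are left grey above the diagonal, since mouse 9 lay apart from the rest.

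The genes most like each of the 8 in their variation over the 26 mice are given as a description, among 13783 genes. For Flt4 they were Eng (r = 0.848), Mmrn2 (0.846) and Podxl (0.835), and for Stab1 they were Ehd4 (0.892), Abcg1 (0.892) and Lama4 (0.885). For Pdpn they were Plxnb1 (0.949), Itgb4 (0.945) and Rhou (0.944), and 1682 genes had an r over 0.7 with it. For Prox1 they were Mfsd4 (0.904), Herc3 (0.873) and Fnip2 (0.870). Figf was nearest to Pcdh12 (0.814), Zeb1 (0.805) and Npy1r (0.800), and Vegfc to Ccdc9 (0.748), Col7a1 (0.731) and Zfp593 (0.728). For Lyve1, at its few counts, Arl16 (0.721), Gaa (0.71) and Npl (0.708) were nearest.

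Without mouse 9 the 3 nearest genes of Stab1 were again Ehd4, Abcg1 and Lama4 (0.912, 0.893 and 0.886). Those of Prox1 were then Mfsd4 (0.892), Fnip2 (0.852) and Pgap1 (0.851), and those of Pdpn were Elf3 (0.960), Itgb4 (0.956) and Rrad (0.948). Flt4 was nearest to Stab1 itself (0.873), Lama4 (0.868) and Dram1 (0.843). For Figf they were Svep1 (0.826), Nid1 (0.816) and Pcdh12 (0.805), and for Vegfc Zfp593 (0.751), Ccdc9 (0.749) and Pmvk (0.739). All 3 of Lyve1 were replaced, by Tmem221 (0.676), Btnl2 (0.659) and Ctf1 (0.633), and 0 genes instead of 5 had an r over 0.7 with it.

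For Stab2, as for Lyve1 and Flt4, all 3 nearest genes changed when mouse 9 was left out. Over 26 mice Lyrm7 (0.951), Rpl29 (0.927) and Cnksr3 (0.925) were nearest, and 235 genes had an r over 0.7. Without mouse 9 Atxn1 (0.788), Xdh (0.746) and Tnfsf10 (0.712) were nearest, and 4 genes had an r over 0.7. Rpl29 averaged 14.43 CPM in wild type, 166.5 with PBS and 147.3 with RGLS4326. It has many near-identical pseudogene copies, and their part in its counts was not tested.

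Other genes of lymphatic endothelium, from a fixed list of 18, differed in both directions between PBS and wild type. Of 16 tested 8 were called higher and 2 lower with PBS against wild type, beside 24.6% and 17.8% of all genes, a background that holds for each list counted against wild type, with a median log2 fold change of 0.46 beside 0.010 over all genes. Thy1, which T cells and fibroblasts also carry, read 2.78 ± 0.559 CPM in wild type (SD, n = 5) and 28.9 ± 11.2 with PBS (SD, n = 12). Gata2, a transcription factor of lymphatic valves, read 21.6 ± 0.650 and 42.8 ± 5.62 CPM. The 2 lower genes were Mmrn1 and Reln, named after their values were seen, and both are secreted products of lymphatic endothelium. Between RGLS4326 and PBS 0 of the 16 were called, beside 2.15% of all genes. Gata2 alone passed the adjusted p, as did 15.8% of all genes, with a log2 fold change of -0.30 (SE 0.072, adjusted p = 0.0120), or -0.27 (adjusted p = 0.0172) without mouse 9. The collecting duct gene Aqp2 moved the same way in both comparisons, with a log2 fold change of 2.30 (SE 0.25) for PBS against wild type and of -0.56 (SE 0.16, adjusted p = 0.0265) for RGLS4326 against PBS, the latter -0.50 (adjusted p = 0.0395) and still called without mouse 9. The part of collecting duct cells in the Gata2 level was not tested.

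In the wider VEGF list 3 of 15 genes were called higher and 5 lower with PBS against wild type, beside 24.6% and 17.8% of all genes. Between RGLS4326 and PBS 0 were called, beside 2.15%. Pcsk5 (log2 fold change 0.24, adjusted p = 0.0493) and Klk1 (0.30, adjusted p = 0.0288) passed the adjusted p alone between RGLS4326 and PBS, 2 of 15 beside 15.8% of all genes, and neither did without mouse 9 (adjusted p = 0.0864 and 0.0502). Adamts2, a procollagen protease related to the one that processes VEGF-C, read 3.06 ± 0.607 CPM in wild type (SD, n = 5) and 26.3 ± 6.48 with PBS (SD, n = 12). Pcsk5, a proprotein convertase, read 55.4 ± 4.76 and 29.9 ± 5.01 CPM. Blood endothelial markers, which bear on Flt4, had 1 of 14 called higher with PBS than in wild type and 2 lower. Between RGLS4326 and PBS 0 of the 14 were called, beside 2.15% of all genes. Cldn5 passed the adjusted p alone there (log2 fold change -0.38, adjusted p = 0.0383), as did 15.8% of all genes. Without mouse 9 it did not (adjusted p = 0.0588), beside 8.14%. The summed level of these markers was 501 to 646 CPM in wild type, 389 to 711 with PBS and 382 to 637 with RGLS4326 apart from mouse 9, at 696.

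Among genes of hyaluronan, the ligand of Stab2 and Lyve1, 5 of 11 tested were called higher and 2 lower with PBS against wild type. Cd44, the main hyaluronan receptor of leukocytes and injured epithelium, ran from 1.65 to 4.66 CPM in wild type and from 17.6 to 48.0 CPM with PBS. Of the hyaluronan synthases, Has1 and Has2 stayed under 1 CPM on average in all groups, and Has3 was called higher with PBS, at 1.85 ± 0.482 CPM (SD, n = 12) against 1.24 ± 0.303 in wild type (SD, n = 5), a log2 fold change of 0.58 (SE 0.21). Hapln1, which links hyaluronan to proteoglycans, fell from 5.28 ± 1.48 to 0.364 ± 0.233 CPM. It was the only gene of this list called between RGLS4326 and PBS (log2 fold change 1.82, SE 0.53, adjusted p = 0.0269), 1 of 11 beside 2.15% of all genes. Its highest RGLS4326 value, 8.95 CPM, was in mouse 9. Without mouse 9 its log2 fold change was 0.92 (SE 0.34, adjusted p = 0.0709), and no gene of the list was called, beside 0.956% of all genes.

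Scavenger receptors other than the stabilins moved in both directions. Of 13 tested 8 were called higher and 3 lower with PBS against wild type. Scara3 read 0.608 ± 0.170 CPM in wild type (SD, n = 5) and 7.98 ± 4.23 with PBS (SD, n = 12), and Cd36, a fatty acid and lipoprotein receptor, read 797 ± 76.1 and 205 ± 75.8 CPM. With RGLS4326 Scara3 was lower than with PBS (log2 fold change -0.92, SE 0.29, adjusted p = 0.0333) and Cd36 higher (0.62, SE 0.17, adjusted p = 0.0233). They were the 2 of 13 called, beside 2.15% of all genes. Without mouse 9 Scara3 was still called (-0.82, adjusted p = 0.0434), 1 of 13 beside 0.956% of all genes. Cd36 then passed the adjusted p (0.0408) but not the limit on size, at 0.50.

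**Figure D5:**
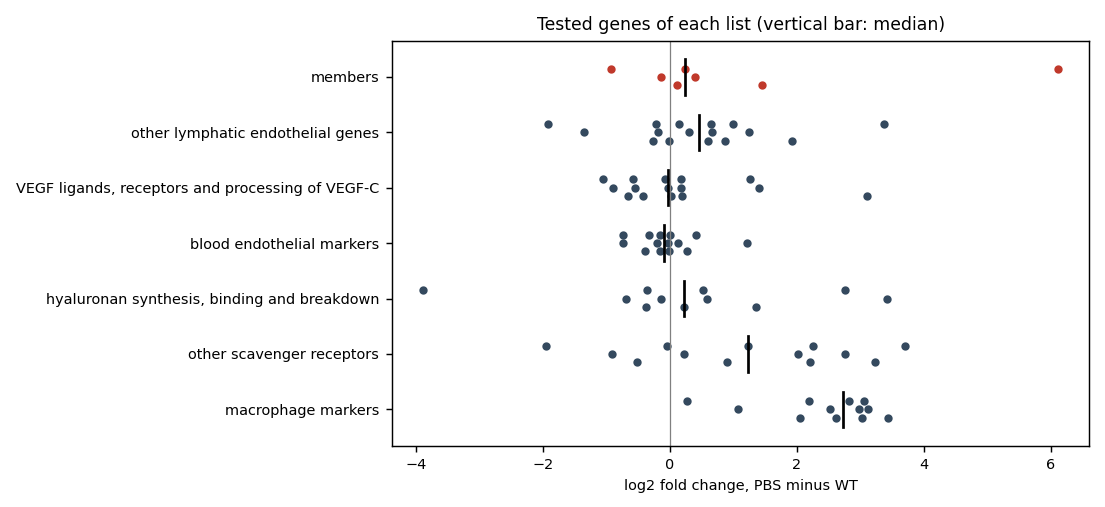
Each point is 1 tested gene, placed by its log2 fold change of PBS against wild type, with the 7 tested genes of the set on top and 6 fixed lists below, and the vertical bar marks the median of a row. Stab2 lay alone at 6.11, beyond any gene of these lists, and the macrophage list had a median of 2.72.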

How the data were processed

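Kidney polyA RNA from 31 mice was sequenced by the authors as stranded 75 bp paired reads. The authors trimmed reads with Trim Galore, mapped them with STAR to GRCm38, and deposited raw counts of uniquely mapped reads per gene from HTSeq 0.6.1 (per the labels), with no normalization. Groups and replicate numbers came from sample titles. Genes passing filterByExpr defaults (15185) were fitted with edgeR 4.0.16 in R 4.3.3, with TMM scaling, 1 coefficient per group and the quasi-likelihood test, with Benjamini-Hochberg adjustment over all genes. The call followed the study (adjusted p under 0.05, absolute log2 fold change over 0.5). SE is the absolute log2 fold change over the square root of F. Correlations used a pseudocount of 1 and 100000 two-sided resamples. The scripts were tested on simulated data.

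The genes and lists were chosen with earlier results of these data known. Besides the 8 genes, the text names from each list the 3 genes with the smallest treatment p and the 2 largest disease differences at a mean of at least 1 CPM, any cell type marker by its level, the 3 most alike genes per member and the 3 genes on either side of Stab2, some of which are not reported here. Alternatives were another scaling, other filters, DESeq2 1.42.0, fewer groups in the fit, the index series, a replicate block, no size limit, other pseudocounts and leaving out mice. The most alike libraries, wild-type 3 and 4, had a chi-square of 2.69 per gene, above sampling noise, and were counted separately.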

Additional observations from a re-analysis of the deposited data

How the results depend on the processing

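Against wild type 3 genes were called under most alternatives. With PBS the count was 4 and 2 in the first and second index series alone and 4 with no limit on size. With RGLS4326 it was 1 in the second series alone, which holds mouse 9, and 4 with no limit on size. Between RGLS4326 and PBS 0 of the tested genes were called under every alternative. The sign of some differences changed there. In the first index series alone the log2 fold change was 0.13 for Stab2, 0.058 for Stab1 and -0.14 for Figf, in the second 0.033 for Flt4 and 0.024 for Vegfc, and in the third -0.013 for Prox1. Figf was -0.003 with a mean of at least 1 CPM and -0.001 with only the 2 groups fitted. Leaving out each mouse gave -0.088 to 0.024 for Flt4, -0.037 to 0.073 for Figf, -0.49 to -0.37 for Pdpn and -0.19 to -0.0080 for Stab2. The cause of these moves was not tested. Pdpn alone, by a permutation test on log2(CPM + 1), gave p = 0.0485 (0.0817 without mouse 9). The replicate numbers do not pair the mice (mean correlation -0.093 over 12 pairs, 4 of them over 0.1). With the replicate block 0 members were called between RGLS4326 and PBS, Stab2 was -0.29 and Pdpn -0.39, and 43 genes instead of 327 were called overall. Over all genes 0 were called in each index series alone, 210 with only the 2 groups fitted, and 78 (without PBS-treated mouse 10) to 574 on leaving out a Pcy/CD1 mouse (145 without mouse 9). Depth limits Lyve1, at 0 to 15 counts. The count of correlations that passed was 6 or 7 under each alternative.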
